A study of Mus musculus with 2 samples.

Results

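Cathepsins are the main proteases of the lysosome, and 10 of them other than cathepsin K were read here in osteoclasts and macrophages of the mouse: Ctsa, Ctsb, Ctsc, Ctsd, Ctse, Ctsf, Ctsh, Ctsl, Ctss and Ctsz. The members were chosen by gene symbol, as every probe set that the platform annotation assigns to 1 of these symbols alone, and they are 10 of 18193 genes on the array with such a probe set. They carry 23 probe sets, a probe set being a group of short array probes against 1 transcript, of which 22 were above the floor described below in both arrays. The study hybridised RNA of 1 osteoclast culture and of 1 macrophage culture, each to 1 Affymetrix array. Marrow of C57/Black6 mice aged 8 weeks was first grown for 3 days in M-CSF, the growth factor that macrophages depend on. The adherent cells served as precursors in either protocol. Osteoclasts were then obtained by 6 days in M-CSF plus RANKL, the cytokine that directs such precursors to the bone-resorbing lineage, and macrophages by 6 days in M-CSF alone. Both cultures were therefore exposed to M-CSF throughout, and the labels do not say how many animals stood behind either of them.

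The cathepsins fall into 3 chemical families that share a compartment. Most are cysteine proteases related to papain, which are made as inactive precursors and lose a propeptide in acid. Some of these cut inside a protein chain (endopeptidases), and others trim its ends (exopeptidases). Cathepsins D and E use a pair of aspartates, and cathepsin A is a serine carboxypeptidase. In macrophages these enzymes digest engulfed material and process antigen, while osteoclasts release cathepsin K onto bone to cut collagen. Cystatins and related proteins hold stray cysteine cathepsins in check.

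With 1 array of each kind there was no replicate and no test was possible, so no p-value is given. Differences are described by size. Signals in the osteoclast array were dimmer in general, with a median log2 difference of -0.43 over 23708 probe sets measured in both arrays. Log2 differences below are osteoclast minus macrophage relative to that median unless they are called as deposited, and the deposited difference of a gene measured in both arrays is 0.43 lower. As a measure of error, probe sets of 1 gene differed with an SD of 0.49 on the log2 scale (14641 probe sets of 5435 genes), which holds no variation between cultures or animals. The floor was the 40th percentile of all probe sets, an intensity of 14.4 in osteoclasts and 17.0 in macrophages. The RNA Xist, made in female cells, read 22.1 in osteoclasts and 1872 in macrophages, and the Y-linked gene Eif2s3y 321 and 0.571. The osteoclast array thus read as male and the macrophage array as female, so the cultures came from different animals. The treatment and the animals cannot be told apart in any difference given here.

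As a group, the 10 cathepsins read somewhat lower in the osteoclast array, by a median smaller than the SD of 0.49 between probe sets. None of the 10 differed on the scale of cathepsin K. By its brightest probe set, Ctsh was the 1 member at least 2-fold lower and no member was at least 2-fold higher. Over all 13647 measured genes, 6.99% were at least 2-fold lower and 7.11% at least 2-fold higher, so 1 of 10 and 0 of 10 are close to the background of the arrays. The median of the members was -0.31, against 0.00 over all measured genes, and 7 of 10 lay below 0, against 49.7% of all genes. As deposited, 4 members (Ctsb, Ctsc, Ctsd and Ctsh) were at least 2-fold lower and none was at least 2-fold higher, against 17.5% and 3.0% of all genes, and 9 of 10 lay below 0, against 74.6%. Over single probe sets, 8 of the 22 were at least 2-fold lower and 0 at least 2-fold higher. Of 25229 probe sets with 1 symbol, 7.48% and 7.97% were. Those were measured in at least 1 array, whereas the 22 were measured in both, so the 2 sets are not filtered alike. These 8 belonged to 4 genes, Ctsb, Ctsc, Ctsh and Ctsl, and probe sets of 1 gene share their target. Of the 22 probe sets, 16 lay below 0, against 50.1% of the 25229. In bulk RNA, fewer cells that make a transcript and less of it per cell cannot be told apart.

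**Figure D1:**
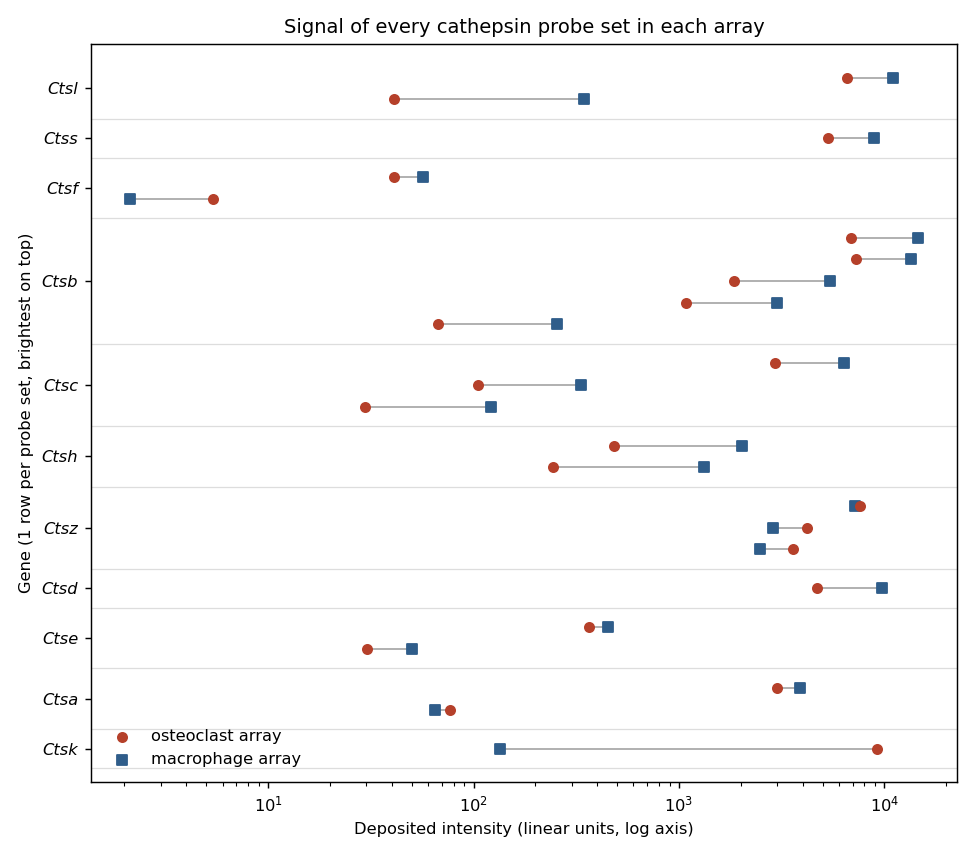
Deposited intensity (linear units, log axis) of every probe set of the 10 cathepsins and of Ctsk, 1 row per probe set, in the osteoclast array (circles) and the macrophage array (squares). The circles lie left of the squares for most genes, lie right of them in all 3 rows of Ctsz, and are far to the right for Ctsk (9202 against 134).

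Among the cysteine endopeptidases, Ctsl, Ctss and Ctsf all lay below 0 by their brightest probe set, and none of the 3 by more than the spread between probe sets. Ctsl encodes cathepsin L, a broad endopeptidase of lysosomes. Its brightest probe set read 6594 in osteoclasts and 10993 in macrophages, a difference of -0.30 that is smaller than the SD of 0.49. Its other probe set read 41.0 in osteoclasts and 346 in macrophages, a difference of -2.64. The 2 probe sets of Ctsl thus lay 2.34 apart on the log2 scale, the widest gap among the members, and the size of the Ctsl difference is not settled. Ctss encodes cathepsin S, which stays active at neutral pH and cleaves the invariant chain in antigen-presenting cells. It read 5297 in osteoclasts and 8930 in macrophages (-0.32, 1 probe set), again within the SD. Ctsf, cathepsin F, was dim, with 40.8 in osteoclasts and 56.9 in macrophages (-0.05), and its other probe set was below the floor in both arrays (5.42 and 2.13).

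Ctss and Ctsk stand next to each other on mouse chromosome 3, with no other protein-coding gene between them in the RefSeq annotation, and they differed by unlike amounts. Ctsk, the collagen-cutting cathepsin that marks osteoclasts and is not among the 10, read 9202 in osteoclasts and 134 in macrophages. The difference of Ctsk was larger than that of Ctss by 6.85 on the log2 scale, a quantity that no common scaling of an array can change and that compares with an SD of 0.70 for the difference between 2 probe sets. The sequences before the start sites of this pair are shown as a description, and their part in the difference was not tested. They run from 250 bases before to 20 bases after the start site, 5′ to 3′, from RefSeq on build GRCm38.p6. In Ctsk the capitals mark the NFAT-type letters TGGAAA, found on the opposite strand at the first base after the start. In Ctss they mark GAAANNGAA, of the type bound by interferon regulatory factors and beginning 21 bases before the start, and GAGGAAGT, of the PU.1 type and on the opposite strand, 2 bases before it.
Ctsk (chr3:95498960-95499229, plus strand): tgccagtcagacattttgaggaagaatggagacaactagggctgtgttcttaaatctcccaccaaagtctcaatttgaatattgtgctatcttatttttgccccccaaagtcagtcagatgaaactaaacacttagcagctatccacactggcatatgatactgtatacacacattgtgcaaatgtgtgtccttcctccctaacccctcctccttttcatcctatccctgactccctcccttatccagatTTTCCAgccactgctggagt
Ctss (chr3:95526536-95526805, plus strand): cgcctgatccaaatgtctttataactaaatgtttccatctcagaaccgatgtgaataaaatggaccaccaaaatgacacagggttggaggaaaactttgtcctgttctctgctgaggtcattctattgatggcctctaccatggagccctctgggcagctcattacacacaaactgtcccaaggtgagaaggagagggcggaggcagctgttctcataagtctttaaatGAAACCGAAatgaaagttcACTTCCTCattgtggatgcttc

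All letters were searched on both strands of windows of 250 bases before to 50 bases after each start. TGGAAA was in 21.4% of 32851 mouse promoter windows, GAAANNGAA in 8.56% and GAGGAAGT in 3.20%. The window of Ctss also held TGGAAA, on the opposite strand 219 bases before the start, left in lower case above. Among the other members, TGGAAA was in Ctsl, 46 bases before the start, and GAGGAAGT in Ctsc, 151 bases before it. The window of Ctsk held no match to GAAANNGAA or GAGGAAGT. A match is a description of the letters, and no binding was measured.

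The exopeptidases held the widest range of the family, with Ctsh lowest and Ctsz highest of the 10. Ctsh encodes cathepsin H, an aminopeptidase. Its probe sets read 485 and 245 in osteoclasts, against 2037 and 1328 in macrophages. The differences were -1.64 and -2.00, which makes Ctsh 3.11-fold lower by the brighter one, beyond 3 times the SD. The dimmer probe set of Ctsh carries a mark of the manufacturer for probes that can match other transcripts. Of all measured genes 1.80% had a lower value than Ctsh, and of the 1421 genes with a mean signal of at least 1000 it was 3.80%, where 8.44% were at least 2-fold lower. Ctsz encodes cathepsin Z, also called X, a carboxypeptidase that removes single residues. Its 3 probe sets read 7601, 4195 and 3595 in osteoclasts, against 7210, 2860 and 2487 in macrophages. They differed by 0.51, 0.99 and 0.96, all in the same direction and none reaching 2-fold, and as deposited by 0.08, 0.55 and 0.53. Ctsz was the 1 member whose probe sets were all brighter in osteoclasts as deposited. The dimmer 2 carry the manufacturer's marks for probes that can match other transcripts. Ctsz and Ctsh lay 2.15 apart on the log2 scale, about 3 times the SD of a difference between 2 probe sets.

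Ctsb and Ctsc were lower in osteoclasts by every probe set, by 1.58-fold and 1.60-fold when read from the brightest. Ctsb encodes cathepsin B, a carboxypeptidase that also cuts inside chains and is abundant in macrophages. Its 5 probe sets, from the brightest to the dimmest, read 6857, 7252, 1848, 1080 and 66.8 in osteoclasts, against 14588, 13541, 5467, 3014 and 254 in macrophages. The differences were -0.66, -0.47, -1.13, -1.05 and -1.49, so the 3 dimmer probe sets passed 2-fold and the 2 brightest did not. Ctsc encodes cathepsin C, a dipeptidyl peptidase that activates the serine proteases of granulocyte and lymphocyte granules. Its 3 probe sets read 2935, 105 and 29.7 in osteoclasts, against 6352, 335 and 122 in macrophages. They differed by -0.68, -1.24 and -1.60, and here too the dimmer 2 passed 2-fold. The probe set at -1.24 carries the mark for probes shared with other transcripts. The values of both genes by their brightest probe set exceed the SD of 0.49.

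**Figure D2:**
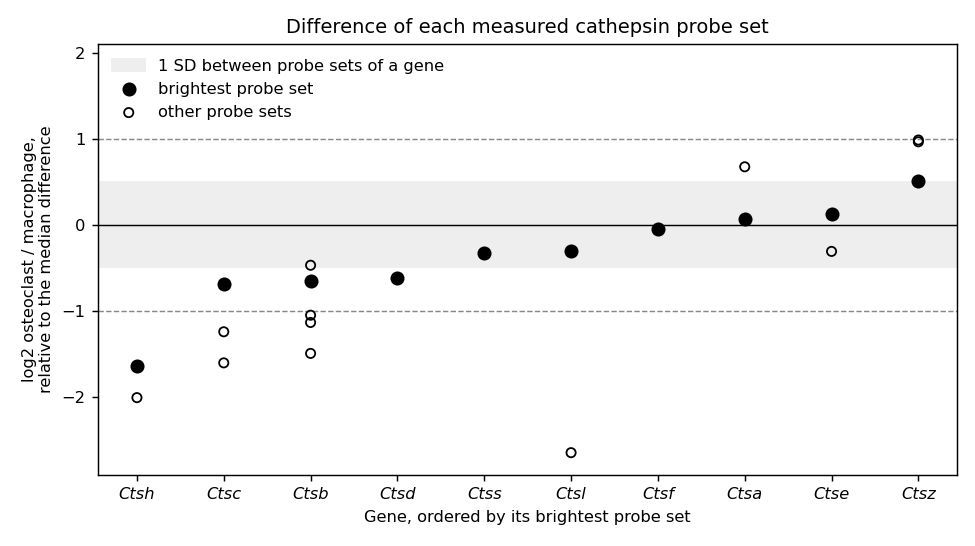
Log2 osteoclast over macrophage, relative to the median difference of the arrays, for the 22 measured probe sets of the 10 cathepsins. Filled points are the brightest probe set of a gene and open points the others, the grey band is 1 SD between probe sets of a gene (0.49), and dashed lines mark 2-fold. Every point of Ctsh, Ctsc and Ctsb lies below 0, every point of Ctsz above it, and the 2 points of Ctsl are 2.34 apart.

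Of the aspartic cathepsins, Ctsd was lower by more than the spread between probe sets and Ctse was within it. Ctsd encodes cathepsin D, the main aspartic protease of lysosomes. It read 4678 in osteoclasts and 9707 in macrophages, a difference of -0.62 (1.54-fold lower) from its 1 probe set, which is beyond the SD of 0.49 and short of 2-fold. Ctse, cathepsin E, an aspartic protease of endosomes, read 365 in osteoclasts and 452 in macrophages by its brighter probe set (0.13). That probe set carries the mark for probes shared with other transcripts, and the other one read 30.1 and 50.3 (-0.31). Both values of Ctse are within the SD. Ctsa encodes cathepsin A, also known as protective protein because it shields beta-galactosidase and neuraminidase in the lysosome. Its brighter probe set read 3018 in osteoclasts and 3872 in macrophages (0.07), and its dimmer one 77.1 and 65.2 (0.67). Read by the brighter one, Ctsa stayed at the median of the arrays.

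In the order of the brightest probe sets, from low to high, the members ran Ctsh, Ctsc, Ctsb, Ctsd, Ctss, Ctsl, Ctsf, Ctsa, Ctse and Ctsz. Only the step between Ctsh and Ctsc exceeded the SD of 0.70 for a difference between 2 probe sets, so the order of the other neighbours is not settled. Of the 10 members, 4 (Ctsh, Ctsc, Ctsb and Ctsd) were lower and 1 (Ctsz) was higher by more than the SD of 0.49, and 5 were within it. The 7 cysteine cathepsins had 6 members below 0, and the 4 exopeptidases among them had a median of -0.67, against -0.30 for the 3 endopeptidases. The classes overlapped, since the exopeptidases ran from -1.64 to 0.51 and the endopeptidases from -0.32 to -0.05.

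**Figure D3:**
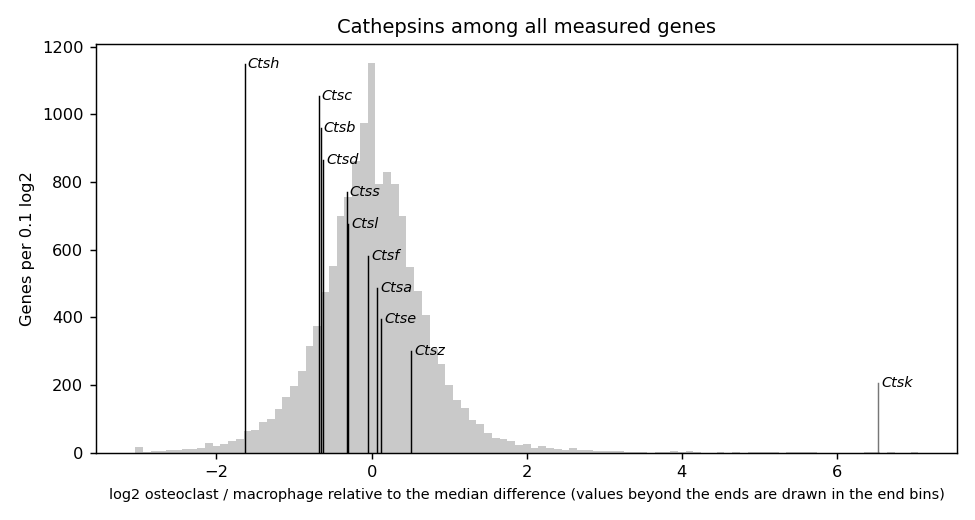
Number of genes in bins of 0.1 on the log2 scale, osteoclast over macrophage relative to the median difference, for 13647 genes measured in at least 1 array, with lines at the 10 cathepsins and at Ctsk. The tall bar at 0 includes 278 genes measured in 1 array whose bound was limited to 0. All members but Ctsh lie in the body of the distribution, and Ctsk lies far to the right at 6.53.

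How far a cathepsin differed depended on which of its probe sets was read. In Ctsb, Ctsc, Ctsh and Ctsl the brightest probe set gave a smaller decrease than the median of the others, in 4 of 4 genes, and this comparison was chosen after the values were seen. Across the 7 members with more than 1 measured probe set the brightest gave the higher value in 5, against 48.9% of 5435 genes on the array. Among 509 genes with a probe set of at least 2000 in macrophages it did so in 48.5%, and among the 197 of these whose brightest probe set lay below -0.25 it did so in 38.6%. The 2 brightest probe sets of Ctsb, at 14588 and 13541 in macrophages, lay near the highest intensity of that array, 17009. The part of compressed signal at high intensity in these values was not tested.

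**Figure D4:**
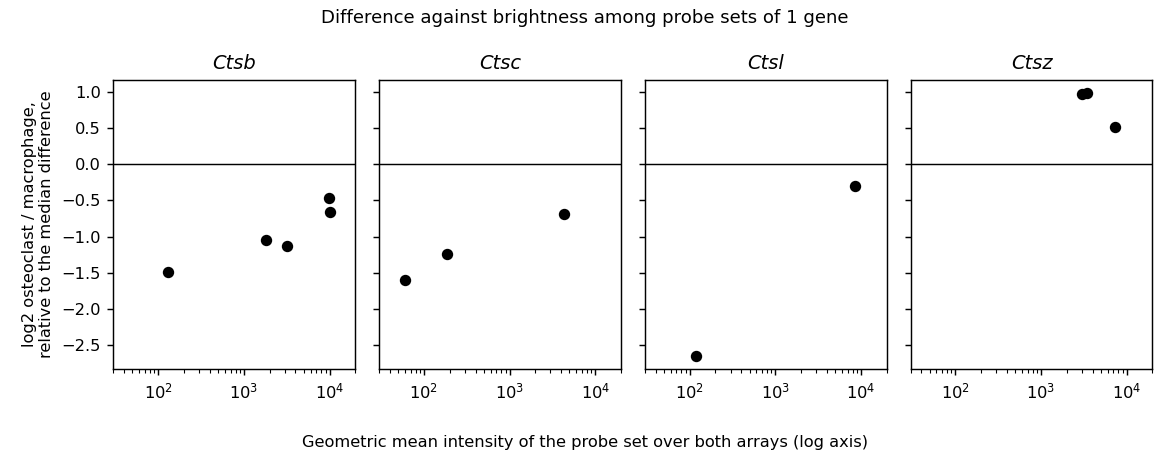
Log2 osteoclast over macrophage relative to the median difference (vertical) against the geometric mean intensity of the probe set over both arrays (horizontal, log axis), 1 point per probe set of Ctsb, Ctsc, Ctsl and Ctsz. In Ctsb, Ctsc and Ctsl the dimmest probe set is the lowest point, at -1.49, -1.60 and -2.64.

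Most of the promoters examined held the letters CACGTG, among members that were lower and members that were not. Windows were at hand for 7 of the 10 members (Ctsa, with 2, and Ctsc, Ctsd, Ctsf, Ctsl, Ctss and Ctsz). The letters CACGTG, the core bound by MITF and the TFE factors that drive lysosomal genes, were in 4 of the 7, Ctsa, Ctsd, Ctsf and Ctsl, against 8.09% of all genes with a window and 7.15% of all windows. The longer form TCACGTGA, which contains that core, was in Ctsa and Ctsd, against 1.12% of genes. The AP-1 letters TGANTCA were in none of the 7, against 8.97% of genes. The window of Ctsk held no match to CACGTG, TCACGTGA or TGANTCA. These motifs were picked with the values known. The 4 stretches that hold CACGTG are printed with it in capitals, to the 20th base after the start, from RefSeq on GRCm38.p6.
Ctsa (chr2:164833653-164833792, plus strand): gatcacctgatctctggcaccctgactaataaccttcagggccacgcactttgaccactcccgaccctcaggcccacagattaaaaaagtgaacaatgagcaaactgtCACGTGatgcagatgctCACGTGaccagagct
Ctsd (chr7:142387808-142388077, minus strand): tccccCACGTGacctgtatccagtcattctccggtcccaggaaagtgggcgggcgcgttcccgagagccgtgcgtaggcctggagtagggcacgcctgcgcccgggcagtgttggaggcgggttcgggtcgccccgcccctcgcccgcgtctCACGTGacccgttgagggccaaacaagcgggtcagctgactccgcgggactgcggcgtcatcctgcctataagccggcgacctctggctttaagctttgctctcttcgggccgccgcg
Ctsf (chr19:4855045-4855184, plus strand): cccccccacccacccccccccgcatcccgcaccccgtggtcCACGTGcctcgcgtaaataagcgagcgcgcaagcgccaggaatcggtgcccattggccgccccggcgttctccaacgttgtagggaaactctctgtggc
Ctsl (chr13:64370501-64370770, minus strand): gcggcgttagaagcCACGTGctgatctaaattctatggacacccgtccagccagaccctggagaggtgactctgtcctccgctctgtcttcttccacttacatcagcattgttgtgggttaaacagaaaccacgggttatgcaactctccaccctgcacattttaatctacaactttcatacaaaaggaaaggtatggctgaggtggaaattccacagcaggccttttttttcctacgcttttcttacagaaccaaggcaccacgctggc

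The core began 12 bases before the start and again at the 6th base after it in Ctsa, 245 and 98 bases before it in Ctsd, 79 in Ctsf and 236 in Ctsl. The 4 genes with CACGTG differed by 0.07, -0.62, -0.05 and -0.30, and the 3 without it, Ctsc, Ctss and Ctsz, by -0.68, -0.32 and 0.51. The ranges overlap among the members with a window, and Ctsb, Ctse and Ctsh had none. The part of the motif in the differences was not tested. Of the 4 genes of the MITF and TFE factors themselves, 1 was at least 2-fold higher, against 7.11% of all measured genes. It was Tfec, with 587 in osteoclasts and 196 in macrophages (2.01). Mitf, named after its values were seen, read 1051 and 1008 (0.49). The remaining 2, also named after their values were seen, were slightly below 0, with Tfeb at -0.11 and Tfe3 at -0.28.

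The inhibitors of the cathepsins included a pair with larger differences than any of the 10 enzymes. Of 12 inhibitor genes with a probe set, 8 were measured, 1 passed 2-fold upwards and 2 downwards (3 downwards as deposited), with a median of 0.19. Over all measured genes, 7.11% passed 2-fold upwards and 6.99% downwards (17.5% downwards as deposited). Ctla2b and Ctla2a encode small proteins that resemble the propeptide of cathepsin L and inhibit cysteine cathepsins of that type. Ctla2b read 146 in osteoclasts and 5201 in macrophages (-4.72), and Ctla2a read 71.6 and 637 (-2.72). They are near copies of each other, and how far each probe set also reads the other gene was not tested. Cst7, cystatin F, an inhibitor kept inside the endosomes of immune cells, read 35.1 in osteoclasts and 17.3 in macrophages (1.45), where it was close to the floor. The cystatins that are widely made were near the median of the arrays. Cst3, cystatin C, read 5877 in osteoclasts and 6632 in macrophages (0.26), and Cstb, cystatin B, read 6169 and 7657 (0.12, with its other probe set at 0.84). Cst3 and Cstb are named after their values were seen.

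The machinery that processes and delivers cathepsins went both ways. Of 5 partners in processing, 1 was at least 2-fold lower, against 6.99% of all measured genes. This was Lgmn, which encodes legumain, the asparaginyl protease that cleaves several cathepsins after their first maturation step. It read 1222 in osteoclasts and 3832 in macrophages (-1.22). Of 14 genes that sort enzymes to the lysosome, 3 passed 2-fold upwards and 2 downwards, with a median of 0.07. The shares over all measured genes were 7.11% upwards and 6.99% downwards. Igf2r, the large mannose 6-phosphate receptor, read 1130 in osteoclasts and 378 in macrophages (2.01, other probe set 1.31). Gnptab, which encodes the subunits of the enzyme that starts the mannose 6-phosphate tag, read 1498 and 800 (1.34), and its 3 probe sets ran from 1.34 to 2.21. Gga2, an adaptor of these receptors at the Golgi, read 742 and 448 (1.16). On the lower side were Sort1, sortilin, a sorting receptor that does not need the tag (98.2 in osteoclasts and 405 in macrophages, -1.61), and Ap1b1, a subunit of the AP-1 clathrin adaptor (209 and 791, -1.48). As deposited, 1 of the 14, Igf2r, was at least 2-fold higher and 3 were at least 2-fold lower.

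**Figure D5:**
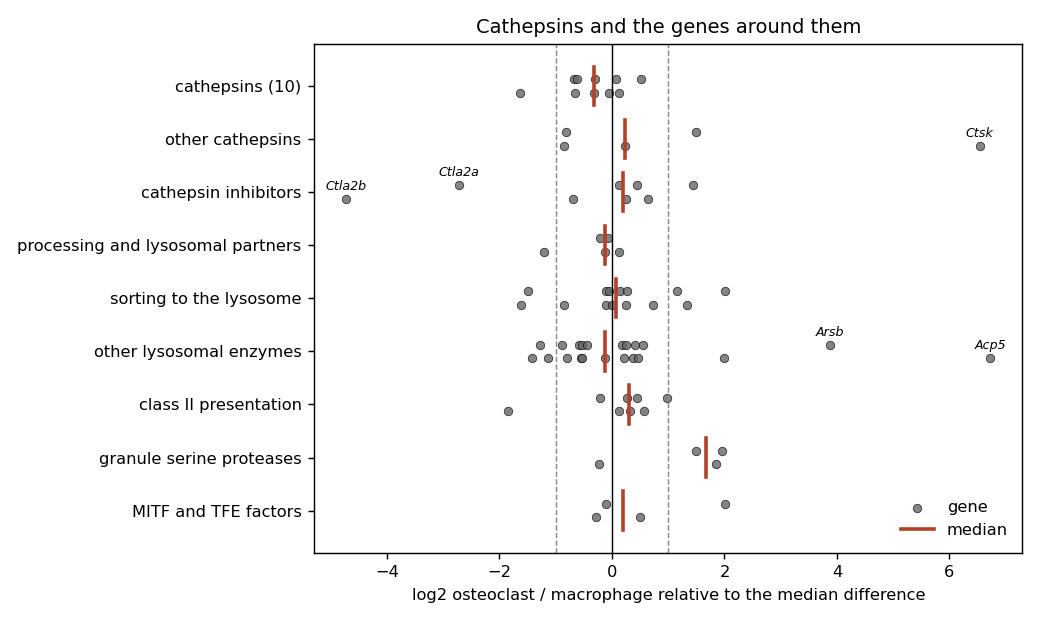
Log2 osteoclast over macrophage relative to the median difference for the 10 cathepsins and the measured genes of 8 lists around them, 1 point per gene, with the median of each list as a bar and dashed lines at 2-fold. The cathepsin median is -0.31, and Ctsk, Acp5, Arsb, Ctla2a and Ctla2b lie farthest from 0.

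Other lysosomal enzymes lay on both sides of the median of the arrays. Of 21 measured, 3 passed 2-fold upwards and 3 downwards, 11 lay below 0, and their median was -0.13. As deposited it was 3 upwards and 6 downwards, with a median of -0.56. The higher ones were Acp5, the tartrate-resistant acid phosphatase of osteoclasts (8167 in osteoclasts and 104 in macrophages, 6.72), the arylsulfatase gene Arsb (3.88) and the acid sphingomyelinase gene Smpd1 (1.99, other probe set -0.10). The 3 probe sets of Arsb ran from 0.79 to 3.88, so the size of its difference is not settled. The lower ones were the acid lipase gene Lipa (-1.41), the phospholipase gene Pla2g15 (-1.28) and the thioesterase gene Ppt1 (-1.14, with its 4 probe sets from -1.47 to 0.24). In class II presentation, where Ctss and Ctsl cut the invariant chain, 1 of 8 measured genes was at least 2-fold lower, against 6.99% of all. None passed 2-fold upwards, against 7.11%. The lower gene was H2-DMa, a chain of the peptide-loading factor (50.6 in osteoclasts and 246 in macrophages, -1.85). Cd74, which encodes the invariant chain, read 539 in osteoclasts and 666 in macrophages (0.13) and is named after its values were seen.

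Among the remaining cathepsin genes, Ctso, a cysteine cathepsin outside the 10 and named after its values were seen, read 316 in osteoclasts and 751 in macrophages (-0.82, other probe set 0.37). Of 12 such genes, 7 were below the floor in both arrays, all of them from the placental group found in rodents. Of 7 granule serine proteases, the kind of enzyme that Ctsc activates, 4 were measured and all 4 were dim. Of these, 3 were at least 2-fold higher and none 2-fold lower, against 7.11% and 6.99% of all measured genes. Ctsg, made in neutrophil granules, read 35.7 in osteoclasts and 14.1 in macrophages. With the macrophage value raised to the floor, Ctsg was higher by 1.5 on the log2 scale, or by 1.07 as deposited. Prtn3 read 63.5 in osteoclasts and 22.2 in macrophages (1.95), and Elane 45.6 and 4.24 (1.85 with the macrophage value raised to the floor, 1.42 as deposited). Gzma, a granzyme of lymphocytes named after its values were seen, went the other way, with 9.46 in osteoclasts, below the floor, and 22.7 in macrophages (-0.23). Elane and Prtn3 are also granulocyte markers in the lists that follow.

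Marker lists show what else differed between the 2 cultures. In the osteoclast list 6 of 6 markers were 2-fold higher or more, with a summed intensity of 21685 in osteoclasts and 341 in macrophages. Of 5 macrophage markers 3 were at least 2-fold lower, and the summed intensity was 13246 in osteoclasts and 25673 in macrophages, of which Csf1r and Cd68, which osteoclasts also make, gave 6005 and 5850 of the osteoclast sum. The 3 lower markers, Adgre1, Mertk and Fcgr1, read 1107, 143 and 141 in osteoclasts, against 5919, 706 and 1425 in macrophages, all above the floor in both arrays. Granulocyte markers were at least 2-fold higher in 7 of 8, or in 4 of 8 as deposited, with a sum of 6057 in osteoclasts and 3227 in macrophages, and 1 of them, Elane, was below the floor in macrophages. Dendritic cell markers summed to 194 in osteoclasts and 274 in macrophages (0 of 5 measured at least 2-fold higher, 1 lower), B lymphocyte markers to 49.5 and 119 (0 of 2 higher, 1 lower, 2 lower as deposited), and stromal markers to 4512 and 8232 (0 of 6 in either direction, 1 lower as deposited). No marker had an intensity of 0, but values below the floor count as not measured. The dendritic cell marker Ccr7 and the B lymphocyte markers Cd79a and Ms4a1 were below the floor in both arrays. Xcr1, of the dendritic cell list, and Pax5, of the B lymphocyte list, were below it in osteoclasts only. The part of these other cells in the cathepsin values was not tested.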

How the data were processed

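RNA of 1 osteoclast and 1 macrophage culture was labelled, starting from 1 µg, as biotinylated cRNA with Affymetrix one-cycle chemistry, as the labels' protocols state. The authors deposited linear intensities of 45101 probe sets per array. Probes were summarised, background corrected and scaled by methods not given in the sources used here. The 64 control probe sets were left out, and only the 34945 probe sets with 1 gene symbol were named (932 had several and 9160 none). Entrez identifiers of 34741 were found in RefSeq (GRCm38.p6), and no symbol differed. Intensities below the floor were raised to it, and log2 differences were centred on the median of probe sets measured in both arrays. At the floor, 15.4% of 78 olfactory and vomeronasal receptor probe sets counted as measured in osteoclasts and 20.5% in macrophages. Each gene takes the value of its brightest probe set by mean log2 signal. Numbers of arrays limit every value.

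The members, lists, motifs and rules were chosen with earlier results of these data known. The genes named are the 10 members and Ctsk, with every probe set. From each list other than the marker lists, up to 3 in each direction with the largest difference of at least 2-fold are named. Others from these lists are marked in the text. The cell type markers were not named by this rule, and some that did not pass 2-fold are among them. Of 19 inhibitor genes 7 and of 25 lysosomal enzyme genes 4 lacked such a probe set and were not analysed here. Computations used Python 3.11.15, numpy 2.4.6, pandas 2.3.3 and statsmodels 0.14.6. The calculation was also run on simulated arrays with a known shift and changes of known size, which hold no variation between cultures or animals.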

Additional observations from a re-analysis of the deposited data

How the results depend on the processing

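With 1 array per group, variation between cultures and animals is unknown, and no setting can supply it. The count of members at least 2-fold lower was 1. It was 4 with the deposited values and no centring (Ctsb, Ctsc, Ctsd and Ctsh), against 17.5% of all genes. With the median of the probe sets of a gene it was 4 (Ctsb, Ctsc, Ctsh and Ctsl). With the dimmest measured probe set it was the same 4 genes. The share over all genes was not computed for these 2 probe set rules, so these counts have no background beside them. The count of members at least 2-fold lower stayed at 1 with quantile normalization, scaling to the trimmed mean, no floor and the higher floor. It also stayed at 1 with log2(intensity + 16), lowess centring and without the members that have 1 probe set. The last 2 of these were chosen after seeing the data. The count of members at least 2-fold higher was 0 in each of these settings. The median of the members ran between -0.75 as deposited and -0.18 without Ctsd and Ctss. Ctsh stayed between -2.07 and -1.62 and Ctsz between 0.08 and 0.96. Ctsl ran from -2.64 to -0.29, Ctsc from -1.60 to -0.66 and Ctsb from -1.49 to -0.64, with the lowest values from the dimmest probe set. Ctsa and Ctse changed sign, from -0.36 to 0.67 and from -0.31 to 0.19. Values near the floor, such as those of Ctsf, include background. No paired analysis was possible because each group has 1 array.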
